A study of Caenorhabditis elegans with 2 samples.

Results

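The 8 GATA factor genes elt-1, elt-2, elt-3, elt-6, elt-7, egl-18, end-1 and end-3 were examined for binding of NFYB-1 in whole young adult worms. They are 8 of 19973 protein-coding genes on the 6 nuclear chromosomes of Caenorhabditis elegans, and they were taken by name. A region was assigned to a gene when its summit lay between 2000 bp upstream of the first annotated start and the end of the gene, here called the gene window. The samples were 2 biological replicates of 1 group, strain RW12190, in which the allele st12190 inserts TY1, EGFP and 3xFLAG into nfyb-1 itself by CRISPR. The worms had been starved as L1 larvae after bleaching and were taken at 65 hours as young adults, and an antibody against GFP was used for chromatin immunoprecipitation followed by sequencing. There was no second condition or genotype, and all values come from 1 tagged strain.

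NF-Y is a transcription factor of A, B and C subunits. It recognises the CCAAT box, and NFYB-1 is its B subunit in the worm. GATA factors are zinc finger proteins that recognise sequences with a GATA core, often GATAA. In the embryo, end-1 and end-3 commit the endoderm precursor to its fate, and they hand over to elt-2 and elt-7, which drive and maintain intestinal genes into adult life. In the epidermis, elt-1 specifies the fate, elt-3 acts in differentiating epidermis, and egl-18 (also called elt-5) and its neighbour elt-6 act in the seam cells. Chromatin came from whole animals, so weak binding in many cells and strong binding in few cells cannot be told apart.

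In the main list, the conservative thresholded list made from both replicates, 5 of the 8 genes had 1 region each. These were egl-18, elt-2, elt-1, end-1 and end-3, and elt-3, elt-6 and elt-7 had none. The reference sequences within 100 bp of the 5 summits are shown because they differ in how many CCAAT boxes and GATA cores they hold. Each is the plus strand of WBcel235 from RefSeq, which is also the strand of the gene, written 5′ to 3′. Capitals mark CCAAT or GATAA, read on the other strand as ATTGG or TTATC.
egl-18, chrIV:1904366-1904566: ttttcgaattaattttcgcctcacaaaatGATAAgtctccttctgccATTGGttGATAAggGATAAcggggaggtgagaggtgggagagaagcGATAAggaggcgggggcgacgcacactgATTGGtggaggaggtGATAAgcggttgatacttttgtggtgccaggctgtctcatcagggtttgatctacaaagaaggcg
elt-2, chrX:10480638-10480838: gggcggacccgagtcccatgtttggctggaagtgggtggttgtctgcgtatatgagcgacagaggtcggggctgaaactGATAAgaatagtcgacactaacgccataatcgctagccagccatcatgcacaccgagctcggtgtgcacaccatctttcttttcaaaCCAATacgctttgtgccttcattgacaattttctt
elt-1, chrIV:9615410-9615610: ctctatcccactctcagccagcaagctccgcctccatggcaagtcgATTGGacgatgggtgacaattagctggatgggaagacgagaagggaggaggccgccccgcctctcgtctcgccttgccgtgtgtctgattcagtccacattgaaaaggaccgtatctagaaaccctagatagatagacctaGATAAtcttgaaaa
end-3, chrV:14013669-14013869: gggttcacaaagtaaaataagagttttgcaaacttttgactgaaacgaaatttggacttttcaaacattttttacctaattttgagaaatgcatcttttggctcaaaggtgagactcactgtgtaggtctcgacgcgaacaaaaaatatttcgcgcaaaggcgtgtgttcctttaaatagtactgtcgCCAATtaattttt
end-1, chrV:13986804-13987004: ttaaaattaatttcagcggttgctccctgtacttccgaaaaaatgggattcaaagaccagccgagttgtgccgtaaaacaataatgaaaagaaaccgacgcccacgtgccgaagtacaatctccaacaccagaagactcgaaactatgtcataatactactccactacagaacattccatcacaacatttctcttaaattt

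All protein-coding genes gave the background. In the main list 3287 of them (16.5%) had a summit in the gene window, against 5 of the 8 GATA factor genes (62.5%). The median window of the 8 genes was longer, at 5042 bp against 4027 bp over all genes. That of egl-18, at 17519 bp, was reached or passed by 1.89% of genes. The windows of end-1 (3947 bp) and end-3 (3286 bp) were shorter than the median over all genes. In the thresholded list of replicate 1 a summit lay in the windows of 2 of the 8 genes, against 8.26% of all genes, and in that of replicate 2 again in 2 of 8, against 11.1%. The 2 genes were egl-18 and elt-2 in each replicate, and 6.95% of all genes had a summit in both replicates' lists. Since the genes are few and were picked by name, no test was made of these shares. The part of window length in the counts was not tested. A main region that overlapped thresholded regions of both replicates was found at the same 2 genes and at 6.75% of all genes. The other thresholded whole-series list had a summit at 4 of the 8, without end-3, against 16.8%. With a promoter window from 500 bp upstream to 200 bp downstream of any start, 1 of the 8, elt-1, had a main summit, against 7.41%.

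The 3 regions at elt-1, end-1 and end-3 stood near the threshold of the main list. That threshold was a score of 830, which corresponds to an irreproducible discovery rate (IDR), which is low where a region keeps its rank in repeated calls, of 0.01. Their IDRs were 0.0082, 0.00804 and 0.00753. At elt-2 the IDR was 0.000622, and at egl-18 it was 1e-05. The matching regions in the ranked lists of replicates 1 and 2 had IDRs of 0.497 and 0.0189 at elt-1. They had 0.329 and 0.141 at end-1, and 0.61 and 0.0126 at end-3. At elt-2 these IDRs were 0.00441 and 0.00901, and at egl-18 1e-05 in each replicate. With an IDR of 0.001, which 1628 of the 3890 main regions met, only egl-18 and elt-2 kept a region. The share of all genes at that IDR is not given. The region at end-3 was absent from the other thresholded whole-series list, where its IDR in the ranked list was 0.0402.

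**Figure D1:**
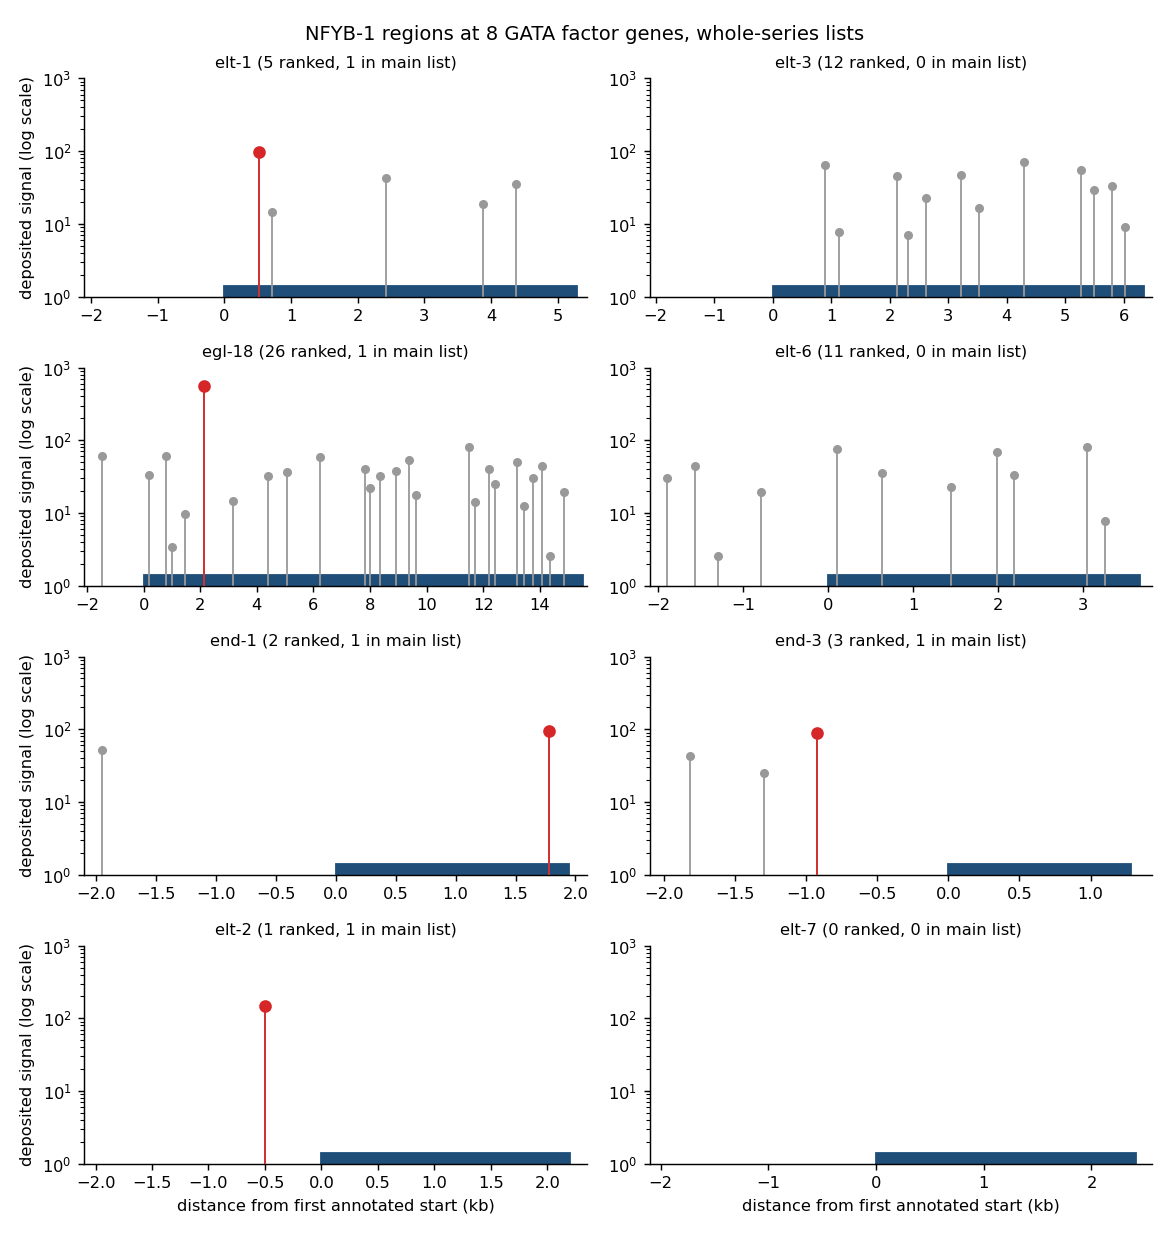
Regions of the ranked whole-series list that belongs to the main list (grey) and of the main list (red), plotted by the distance of the summit from the first annotated start in kb and by the deposited signal on a log scale. Blue bars are the gene bodies. One region at egl-18, with a signal of 565, stands above the others, and elt-7 has no region in its window.

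Among the epidermal genes, egl-18 carried the strongest of the 5 regions. The deposited signal, the peak caller's own value per region on a scale that is not stated, was 565 in the main list, which put it at rank 90 of 3890 regions. Main-list signals come from both replicates together and are not on the scale of a single replicate. In the ranked lists of single replicates the region reached 251 in replicate 1 and 320 in replicate 2, or 285 ± 49.2 (mean ± SD, n = 2). Its rank was 100 of 56113 regions in replicate 1 and 81 of 78104 in replicate 2. Both replicates thus placed it within the top 0.178% of their ranked lists.

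The egl-18 region (gene WBGene00001186, region chrIV:1904339-1904563, ce11) was 225 bp wide, and its summit lay 2144 bp downstream of the first annotated start. This is inside intron 1 of transcript F55A8.1a.2, an intron of 11092 bp (chrIV:1902362-1913453). The other annotated egl-18 starts, at 1913446 and 1913454, lay 8980 and 8988 bp beyond the summit, so the region is upstream of the shorter transcripts. The summits of the replicates lay 5 bp to the right and 8 bp to the left of the main summit. Of other annotated genes, only the ncRNA gene F55A8.5 had a start within 2000 bp of it, and that start was 939 bp away on the opposite strand. The egl-18 window held 25 further ranked regions, the highest with a signal of 81.1, and none of them passed the threshold.

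The neighbour elt-6 (WBGene00001253, chrIV:1917977-1921643) starts 136 bp beyond the end of egl-18 and had no thresholded region in any list. Its window held 11 regions of the ranked whole-series list, 4 of which also lay in the egl-18 window. The highest had a signal of 80.7 and an IDR of 0.0967, with its summit in intron 5, 3049 bp from the start. It reached 32.5 in replicate 1 and 31.7 in replicate 2, at ranks of 13251 and 19081. The 2 replicates did not put the same elt-6 region first, since in replicate 2 a region 121 bp downstream of the start, in the coding sequence, was higher at 47.8.

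At elt-1 (WBGene00001249) the main region, chrIV:9615322-9615697, had a signal of 97.0 and rank 3205 of 3890. It reached 41.5 in replicate 1 and 56.2 in replicate 2 (48.9 ± 10.4, mean ± SD, n = 2), and it was in the thresholded list of neither. The summit lay 515 bp downstream of the first start, in intron 2 of transcript W09C2.1a.1, and 480 bp upstream of a later start. The other thresholded whole-series list held a second and weaker elt-1 region with its summit 200 bp to the right, at a signal of 14.4. These regions overlap, so they may not be separate sites.

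The epidermal gene elt-3 (WBGene00001251, chrX:13934874-13941216) had 12 ranked regions and none past the threshold. Its highest had a signal of 70.0 and an IDR of 0.0713, and its summit lay in an intron of the longer transcripts, 167 bp upstream of the start of a shorter one. In replicate 2 the matching region reached 41.9, and in replicate 1 no ranked region overlapped it. The median over the 12 regions was 31.3, close to the median of 32.8 over the nuclear regions of that list.

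Of the intestinal genes, elt-2 (WBGene00001250), the main GATA factor of the adult intestine, had the second strongest region. Its signal was 148 in the main list, at rank 1409 of 3890, with 76.6 in replicate 1 and 73.3 in replicate 2 (74.9 ± 2.29, mean ± SD, n = 2). The region, chrX:10480550-10480925, was in the thresholded list of each replicate, and its summit lay 502 bp upstream of the only annotated start. A promoter window that ends at 500 bp therefore misses it, and also the replicate 1 summit, likewise at 502 bp. Such a window would hold the replicate 2 summit, at 482 bp. No other protein-coding gene started within 2000 bp of the main summit, and no other ranked region lay in the elt-2 window in any of the ranked lists.

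The partner of elt-2, elt-7 (WBGene00015981, chrV:4770670-4773086), had no region in either ranked whole-series list or in replicate 2. The ranked lists, which also hold regions far below the threshold, had a region in the windows of 7 of the 8 genes in the whole-series list of the main set, against 73.9% of all genes, and of 7 in the other whole-series list, against 74.2%. The counts were 8 of 8 in replicate 1, against 72.2%, and 7 of 8 in replicate 2, against 76.0%. Replicate 1 alone ranked a region at elt-7, with a signal of 36.8, rank 9234 of 56113 and an IDR of 0.414. Its summit lay 73 bp upstream of the first start, and the sequence around it is shown because a GATA core in the reverse orientation sits 3 bp from the summit.
elt-7, chrV:4770497-4770697: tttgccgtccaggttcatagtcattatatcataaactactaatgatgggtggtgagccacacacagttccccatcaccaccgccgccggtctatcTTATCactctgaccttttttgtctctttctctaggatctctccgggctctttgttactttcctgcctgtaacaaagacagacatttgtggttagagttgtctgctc

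The genes of the embryonic endoderm precursor, end-1 (WBGene00001310) and end-3 (WBGene00001311), lie 27620 bp apart on chromosome V. Their regions were alike in signal but not in place. At end-1 the region chrV:13986716-13987091 had a signal of 95.2, with 52.1 in replicate 1 and 46.5 in replicate 2 (49.3 ± 3.95, mean ± SD, n = 2). Its summit lay 1776 bp downstream of the start, in the coding part of exon 4, the last exon. At end-3 the region chrV:14013581-14013956 had a signal of 89.9, with 53.2 and 46.9 (50.1 ± 4.51, mean ± SD, n = 2). That summit lay 926 bp upstream of end-3 and 1436 bp downstream of the start of aip-1, the next nearest gene start. Neither region was in the thresholded list of a single replicate.

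**Figure D2:**
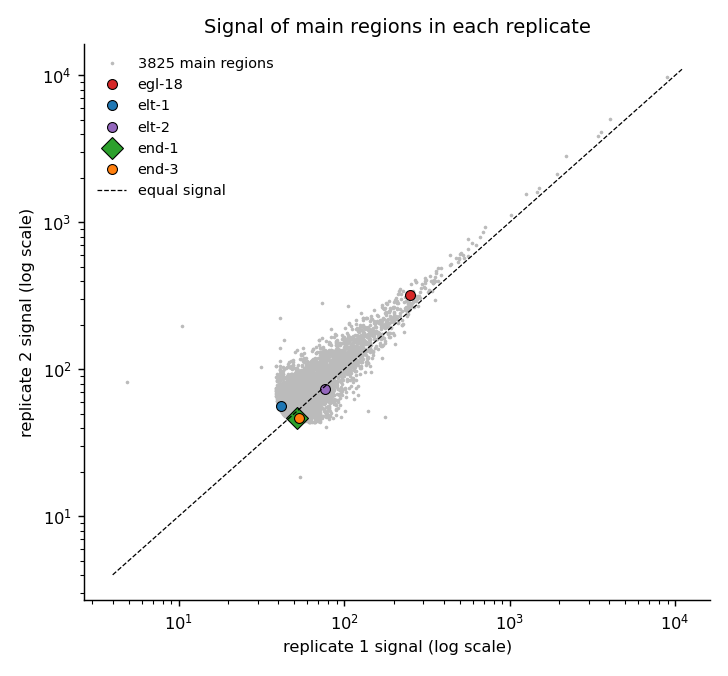
Signal in replicate 1 (x axis) and replicate 2 (y axis), both on log scales, of 3825 main regions with a ranked region in each replicate (grey) and of the regions at 5 GATA factor genes (coloured). The points of end-1 and end-3 nearly coincide, and egl-18 lies far above the other 4 in both replicates.

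In each replicate egl-18 came first and elt-2 second. The remaining 3 could not be put in order, because elt-1 was the lowest of them in replicate 1, at 41.5, and the highest in replicate 2, at 56.2. The log2 ratio of replicate 2 over replicate 1 was 0.35 at egl-18 and 0.44 at elt-1, against -0.06 at elt-2, -0.16 at end-1 and -0.18 at end-3. Over the 3825 main regions its median was 0.24, so means and SDs of unscaled signals include an offset between the replicates.

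**Figure D3:**
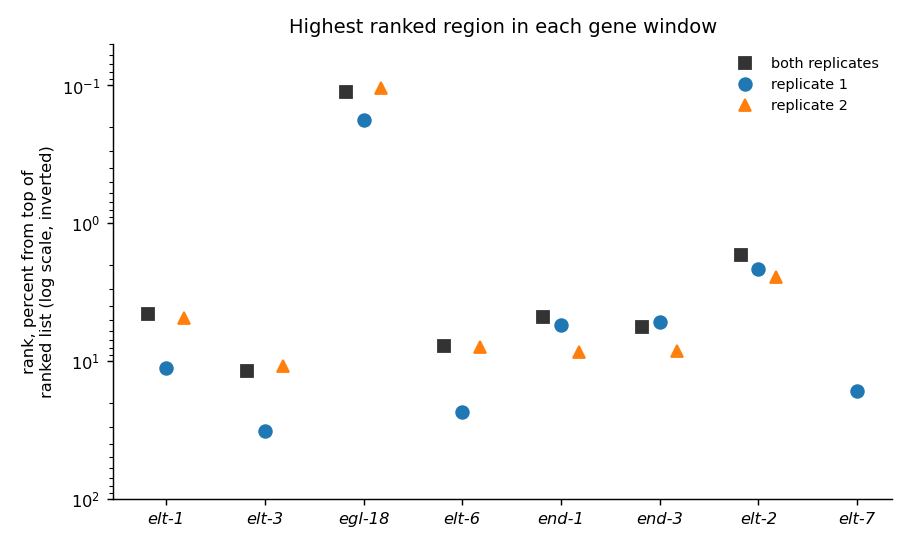
Rank of the highest region in each gene window, as percent from the top of the ranked list on an inverted log axis, in the whole-series list (squares), replicate 1 (circles) and replicate 2 (triangles). The egl-18 region is near the top in all 3 lists, at 0.111% in the whole-series list, and elt-7 has a point for replicate 1 only.

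The CCAAT box, searched as CCAAT on both strands within 100 bp of the summit, was present at 4 of the 5 main regions, all but end-1. Of 3879 nuclear main regions 36.9% held it. The GATA core, searched as GATAA on both strands, was present at 3 of the 5, egl-18, elt-2 and elt-1, against 31.4% of main regions. Both patterns together stood at these 3 genes and at 11.2% of main regions. They also stood together at the highest elt-6 region, which did not pass the threshold, with the CCAAT centred 22 bp and the GATAA 65 bp from its summit. No CCAAT and GATAA matches overlapped at these regions, and a match describes the sequence, not a site in use.

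The egl-18 summit held 5 GATAA and 2 CCAAT. All 5 GATAA were on the plus strand, centred 69, 44, 37 and 5 bp to the left of the summit and 38 bp to the right, and the 2 CCAAT were on the minus strand, 51 bp to the left and 23 bp to the right. At least 5 GATAA occurred at 4 of the 3879 nuclear main regions (0.103%), and at least 2 CCAAT at 12.2%. These cut-offs were the counts at egl-18 itself, which is among the 4 regions, so the shares are no test of how unusual it is. At elt-2 the GATAA was centred 19 bp left of the summit and the CCAAT 68 bp right. At elt-1 the CCAAT lay 52 bp left and the GATAA 89 bp right, and at end-3 the CCAAT lay 90 bp right. Within 50 bp of the summit, of the 5 main regions only egl-18 kept a CCAAT. The share of all main regions at that distance is not given, so this count has no background. In each replicate's own thresholded list the regions at egl-18 and elt-2, the only ones there, both held CCAAT and GATAA within 100 bp.

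**Figure D4:**
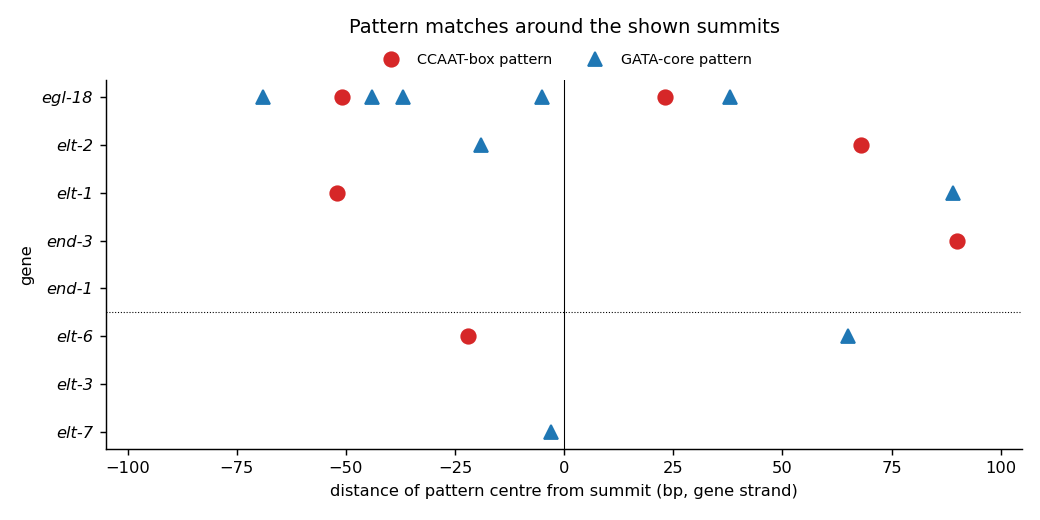
Centres of CCAAT (circles) and GATAA (triangles) matches within 100 bp of the summit, in bp along the gene strand. Rows above the dotted line are the main regions, and rows below it are the highest regions of the genes without one. The egl-18 row holds 7 of the matches, and the rows of end-1 and elt-3 are empty.

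The pattern CGCGC, searched because of an earlier look at these data, was present at 1 of the 5 main regions, end-3, against 25.3% of main regions. GC content within 100 bp of the summit ran from 35.3% at end-3 and 39.8% at end-1 to 49.3% at egl-18, 50.2% at elt-2 and 52.2% at elt-1. The median over nuclear main regions was 43.8%.

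The other GATA-type genes were elt-4, a short relative of elt-2, and med-1 and med-2, nearly identical genes that act before end-1 and end-3. None of the 3 had a thresholded region in any list, against 16.5% of all genes in the main list. Their median gene window was 2525 bp, against 4027 bp over all genes. At med-1 the ranked list of the main set held 2 regions with a highest signal of 51.1, at rank 22014 of 85921, while the other ranked whole-series list and the ranked lists of both replicates held none there. At elt-4 and med-2 there was no region in any of the ranked lists, in which 72.2% to 76.0% of all genes had one. Reads from med-1 and med-2 could fit both copies, and how such reads were treated is not given in the sources used here.

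Of 11 genes of endoderm specification, 6 had a main region (54.5%, against 16.5% of all protein-coding genes). In both replicates' lists 2 of the 11, skn-1 and lit-1, had a summit, against 6.95% of all genes. The strongest main region at each of these did not itself overlap thresholded regions of both replicates. The median gene window of this list was 7126 bp, against 4027 bp over all genes. The strongest were at skn-1, which encodes the bZIP factor at the start of the pathway, with 70.4 and 98.1 in replicates 1 and 2, at wrm-1, a beta-catenin gene, with 89.0 and 61.6, and at lit-1, which encodes its partner kinase, with 81.1 and 66.8. Of 9 regulators of the epidermis, 1 had a main region (11.1%, near the 16.5% of all genes), the nuclear receptor gene nhr-25, with 47.4 and 50.7, and the median window was 7472 bp. Of 15 genes of the intestine, 5 had a main region (33.3%, against 16.5%), and the median window was 4691 bp. The strongest were pgp-1, a P-glycoprotein transporter gene, at 88.1 and 116, act-5, the intestinal actin gene, at 59.1 and 85.5, and pqm-1, a zinc finger factor gene, at 47.7 and 62.2. The egl-18 signals, at 251 and 320, were above all of these. In the thresholded lists of replicates 1 and 2 alone, the counts were 3 and 3 for endoderm specification, 0 and 1 for the epidermis and 1 and 3 for the intestine, against 8.26% and 11.1% of all genes. A summit in both replicates' lists was found at 1 of the 15 intestine genes and 0 of the 9 epidermis regulators, against 6.95% of all genes.

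As families of developmental transcription factors, 3 of 6 Hox genes and 1 of 21 T-box genes had a main region (50% and 4.76%, against 16.5% of all genes). The Hox genes were ceh-13, egl-5 and nob-1, with replicate means of 107 ± 11.6, 94.2 ± 15.6 and 71.1 ± 1.38 (SD, n = 2), and all 3 had a summit in both replicates' lists, against 6.95% of all genes. The T-box gene was tbx-2, at 98.0 ± 12.5 (SD, n = 2), and the count of T-box genes was 2 in the list of replicate 1 alone, against 8.26% of all genes, and 0 in that of replicate 2, against 11.1%. Gene windows had medians of 6931 bp for Hox and 3853 bp for T-box genes, so these shares are not on an equal footing with that of the GATA factor genes.

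With only 2 samples of 1 group, likeness to other genes was measured by the distance between log10 signals in replicates 1 and 2, over the strongest main region of 3249 genes. Nearest to egl-18 were ZC21.10 (247 and 313) and the collagen gene col-94 (239 and 318). Nearest to elt-2 were rpl-31 (75.5 and 73.5) and Y39B6A.37 (75.5 and 73.0), and nearest to elt-1 were Y62F5A.9 (41.4 and 56.0) and tat-3 (41.6 and 56.5). The genes nearest to end-1 were dlk-1 (52.8 and 47.0) and raga-1 (51.4 and 47.0), and those nearest to end-3 were vha-11 (53.4 and 47.1) and snf-5 (53.3 and 46.4).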

How the data were processed

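Chromatin immunoprecipitation and sequencing lists of 2 replicates were used. Per the labels, chromatin was sonicated to between 200 and 800 bp. The authors deposited 8 lists on ce11, made from alignments and compared by IDR, per the description files. Neither an aligner nor a peak caller is named in these sources. Each region carries a deposited score, the scaled global IDR, and a deposited signal, the caller's own value. Ranked lists add the deposited −log10 of the global IDR. A further 16 columns of the ranked whole-series lists, which give the place and signal in each compared set without naming a sample, were not used. Sequencing depth is unknown, so no interval that needs it is given. The control experiment named in the labels was not analysed here.

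The ranked whole-series list taken for the main list held all 3890 of its regions with the same place and score. Genes came from Ensembl release 115 on WBcel235, the same assembly as ce11, and no region passed a chromosome end. Replicate signals are those of the overlapping ranked region with the nearest summit. Python 3.11.15, pandas 2.3.3 and NumPy 2.4.6 were used, and assignment, overlap and pattern search were checked on simulated data. No statistical test was run. Genes were named by a written rule: all members, the other GATA genes, the 3 strongest of each list, the 2 nearest in signal, and nearby gene starts. Members, lists and rule were chosen with earlier results of these data known.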

Additional observations from a re-analysis of the deposited data

How the results depend on the processing

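Signals at the 5 regions moved by less than 1 SD when replicate regions were matched by largest overlap or scaled by shared medians. With 2 replicates, leaving one out moves a mean by less than 1 SD by construction and says nothing of stability. The 5 genes, with 5 regions, became 2 genes and 2 regions at an IDR of 0.001, and 2 and 2 with either replicate left out, in each case egl-18 and elt-2. With 500 bp upstream to the gene end they became 3 and 3 (egl-18, elt-1, end-1), with 2000 bp upstream and no gene body 3 and 3 (elt-1, elt-2, end-3), and with 500 bp upstream to 200 bp downstream 1 and 1 (elt-1). Regions with CCAAT fell from 4 to 1 within 50 bp, and to 2 with either replicate left out. Endoderm genes with a region then numbered 3. Epidermis regulators numbered 0 with the promoter window, 2 in the other list and 0 to 1 without a replicate, intestine genes 1, 3 and 1 to 3, and T-box genes 2 in the other list and 0 to 2 without a replicate. Hox genes numbered 0 with the promoter window. Over all genes the share was 7.41% with the promoter window, 16.8% in the other list, 11.1% without replicate 1 and 8.26% without replicate 2. No such share is given for the IDR of 0.001 or the other windows, and none over main regions for CCAAT within 50 bp. Narrower windows hold fewer bases by construction. The thresholded lists of replicates 1 and 2 held 1734 and 2433 regions, against 3890 in the main list. How far these differences account for the changed counts was not tested, and for the other list the cause was not tested either. An IDR of 0.01 changed nothing, because it is the deposited threshold. Leaving out a replicate here means using the other one's own list. No paired analysis was possible because there was only 1 group. Sets of 3 to 21 genes and 2 replicates limit the precision of every share.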

Other observations

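Besides egl-18, 3 main regions held at least 5 GATAA within 100 bp of the summit, and they were looked up after this count was seen. The nearest protein-coding starts were those of F16G10.6 (956 bp away, signal 280, rank 373), egl-27 (467 bp, signal 179, rank 980) and C52E2.3 (673 bp, signal 118, rank 2231). The gene egl-27 encodes a chromatin protein with a GATA-type zinc finger. All 5 matches were on the plus strand at egl-18 and 0 of 5 at F16G10.6, against 2 of 5 at egl-27 and 3 of 5 at C52E2.3. The egl-18 region held 2 CCAAT, that nearest to F16G10.6 held 1, and those nearest to egl-27 and C52E2.3 held 0.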
